A study of Mus musculus with 6 samples.

Results

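Interferon-stimulated genes (ISGs) were followed in liver tumors of WT mice and of mice lacking the orphan nuclear receptor NR2E3. The members were 40 genes chosen by symbol: transcription factors of the response, sensors of foreign nucleic acid, the ISG15 modification system, the IFIT and OAS families, other antiviral effectors and the interferon-inducible GTPases. Each symbol matched 1 row of the 24063 genes in the raw count table, and all 40 were among the 13572 genes that passed a filter on low counts. The rule that picks the symbols uses no measured value, although earlier results of these data were known when the list was made.

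Interferons are cytokines, and those of type I and type III are released when cells detect viral or other misplaced nucleic acid. Type I and type III interferons signal through JAK1 and TYK2 to a complex that contains STAT2 and IRF9 and binds the interferon-stimulated response element (ISRE), whereas interferon gamma signals through JAK1 and JAK2 and acts at the gamma-activated site (GAS). In liver, both hepatocytes and resident macrophages (Kupffer cells) can mount this response.

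The tumors came from male C57BL/6 mice that were WT (NR2E3+/+) or knockout (Nr2e3-/-), with 3 mice per genotype and 1 RNA-seq library per tumor sample. Mice of both genotypes had received the liver carcinogen diethylnitrosamine (DEN, 25 mg/kg, intraperitoneally) at 15 days of age, and the RNA was taken at the 24-week time point, as the study's methods and legends describe. No liver without DEN and no interferon-treated sample entered the comparison, and the tissue is bulk tumor, so fewer cells of a type and less RNA per cell cannot be told apart. Libraries held 15376261 to 28690279 counts assigned to genes, the fewest in Nr2e3-/- replicate 1 and Nr2e3-/- replicate 3 (19372418). Nr2e3 itself had 0 counts in all 6 libraries, which allows up to 0.105 to 0.195 CPM (3 counts per library), so the targeted gene could not serve as a check of the genotype labels. The hepatocyte genes fixed as tissue markers (Alb, Ttr, Apoa1, Apob, Cps1, Hnf4a, Tat and Serpina1c) summed to between 120676 and 161984 CPM and were each present in every library.

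Levels are given as CPM, counts scaled to library size with edgeR's TMM factors, and, where genes are compared with each other, as RPKM, the same value per kilobase of exon. The members spanned a wide range: Bst2 had a mean of 132 RPKM over the 6 libraries and Iigp1 87.0 RPKM, 11 members exceeded 10 RPKM, the median was 4.92 RPKM, and 4 members lay below 1 RPKM. Oas3 (0.379 RPKM) and Mx1 (0.426 RPKM) had the lowest levels. In single libraries the members rested on 8 to 23249 counts.

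No member passed an adjusted p of 0.05 for the difference between genotypes (edgeR quasi-likelihood test, Benjamini-Hochberg adjustment over all tested genes; the smallest was 0.181), where 0.0958% of all tested genes did. At an unadjusted p under 0.05, 3 of the 40 were higher in Nr2e3-/- tumors (Irf1, Ifi35 and Irgm1) and 0 were lower, against 11.8% of all tested genes higher and 9.72% lower, or 21.5% in either direction; the members' share lay below this background. The fitted log2 fold change (Nr2e3-/- over WT) was above 0 for 31 members and below 0 for 9, and 50.8% of all tested genes were above 0. Its median was 0.24 over the members and 0.01 over all tested genes. Only 1 member, Mx2, had CPM values that did not overlap between the genotypes, compared with 26.8% of all tested genes.

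That median rested on 1 tumor. Nr2e3-/- replicate 2 had the highest CPM of the 6 libraries for 34 of the 40 members (85.0%), whereas it was the highest for 23.95% of all tested genes, and it lay above all 3 WT libraries for 38 members (95.0%, against 39.3% of all tested genes). Nr2e3-/- replicate 1 was the lowest library for 14 members (35.0%, against 17.2% of all tested genes) and WT replicate 3 for 13 (32.5%, against 16.5%). Relative to the WT mean, the median member stood at 1.55-fold in Nr2e3-/- replicate 2, 0.813-fold in replicate 1 and 0.830-fold in replicate 3. When Nr2e3-/- replicate 2 was left out, the median log2 fold change became -0.25, with 11 members above 0 and 29 below, where 48.9% of all tested genes were above 0. In that fit 6 members were lower at an unadjusted p under 0.05, against 9.46% of all tested genes, and 0 were higher, against 9.54%. These were Usp18, Ifit2, Oas2, Mx1, Ifi44 and Gbp3, none of which passed an adjusted p of 0.05. When Nr2e3-/- replicate 1 was left out instead, the median was 0.44, with 35 members above 0 (50.3% of all tested genes) and 9 higher at an unadjusted p under 0.05 (19.9%). Of these, Irf1, Irf9, Stat2, Ifi35 and Irgm1 passed an adjusted p of 0.05 in that fit, 5 of 40 against 21.8% of all tested genes. Without WT replicate 1, or without Nr2e3-/- replicate 3, 1 member was past the unadjusted threshold, against 2151 of 13814 and 1693 of 13854 tested genes.

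**Figure D1:**
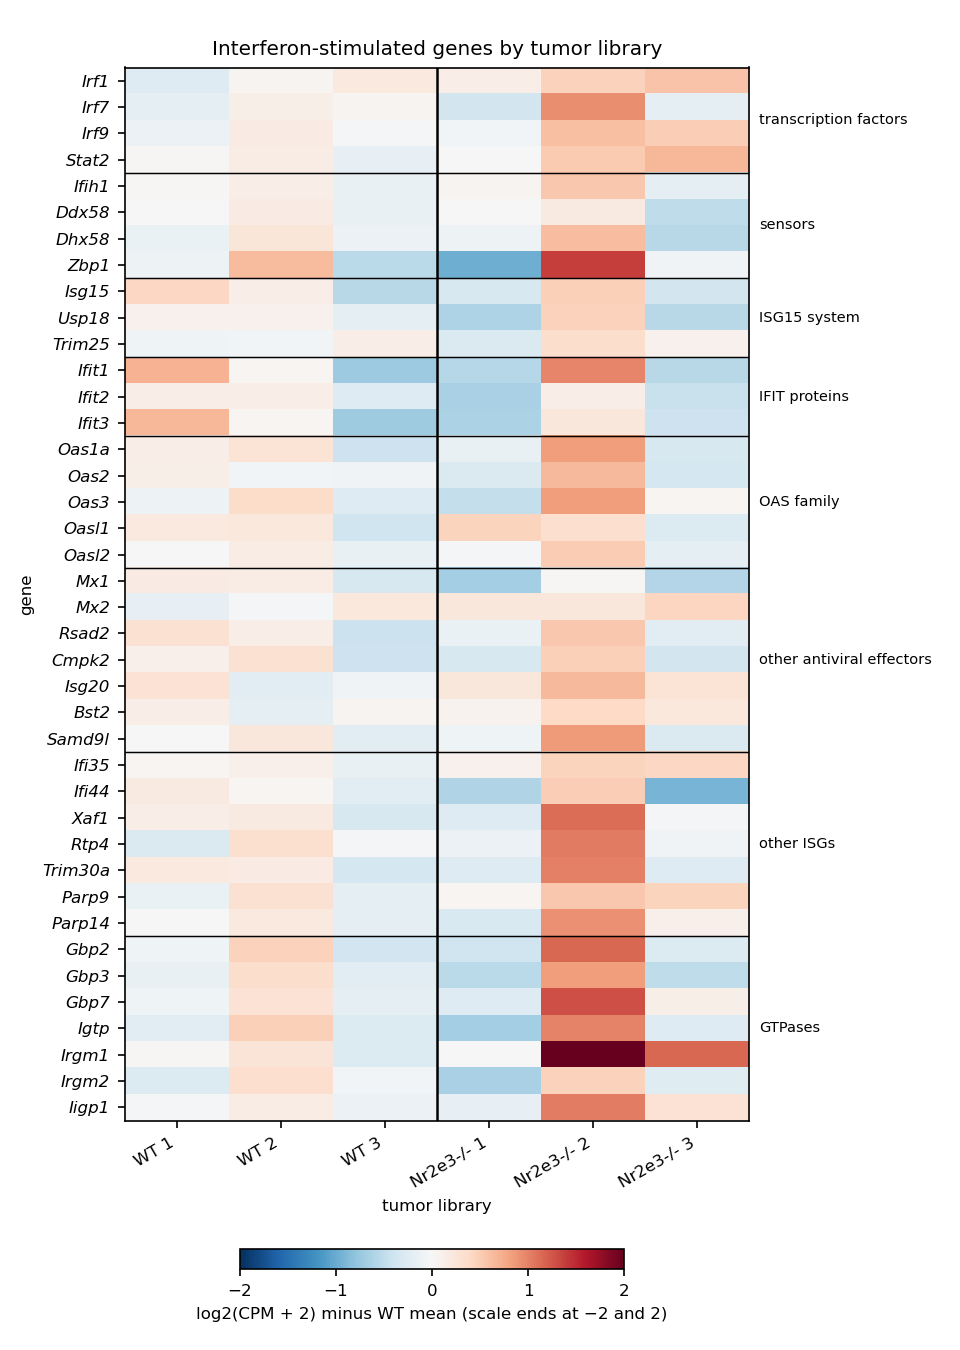
Each row is 1 of the 40 ISGs, grouped by role, and each column 1 tumor library; color gives log2(CPM + 2) minus the mean of the 3 WT libraries. The column of Nr2e3-/- replicate 2 is the reddest for 34 of the 40 genes, and Irgm1 is the darkest row in it.

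The spread among tumors of 1 genotype was wide for these genes. On the log2(CPM + 2) scale, the distance between the highest and the lowest tumor had a median over the members of 0.48 in WT and 1.04 in Nr2e3-/-, compared with 0.20 and 0.36 over all tested genes. For any one gene, 3 tumors against 3 limit an exact two-sided permutation p to 0.1 or more.

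To see which sequence features the members share, the 250 bases upstream of each gene's start (RefSeq, GRCm38.p6) were searched on both strands for an ISRE core written GAAANNGAAA (TTTCNNTTTC on the other strand) and a GAS core written TTCNNNGAA, which reads the same on both. Upstream sequences were at hand for 30 of the 40 members. The ISRE core occurred in 15 of these (50.0%) and in 3.46% of all 27025 genes in the table, and the GAS core in 8 (26.7%) against 8.13%. Both occurred in 5 members (16.7%, against 0.459% of all genes), and 12 of the 30 held neither. All 6 GTPases that could be matched (Gbp2, Gbp3, Gbp7, Igtp, Irgm1 and Irgm2) held the ISRE core. Such a match describes the letters only and is neither a mapped binding site nor a cause of the values below; the stretches printed with the genes are those in which the core letters sit, in capitals, with 20 bases on either side where the window allowed.

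The transcription factors of the response had the role group median that moved least when Nr2e3-/- replicate 2 was left out, from 0.40 to 0.32. Irf1 (chr11:53770014-53778374), which activates interferon-gamma and MHC genes, had 22.4, 28.3 and 31.2 CPM in WT tumors 1 to 3 and 29.8, 38.1 and 41.2 CPM in Nr2e3-/- tumors 1 to 3. Nr2e3-/- tumors 2 and 3 lay above every WT tumor, while Nr2e3-/- tumor 1 fell within the WT range. The log2 fold change was 0.41 ± 0.17 (SE), with an unadjusted p of 0.0465 and an adjusted p of 0.226 by edgeR, and it was 0.38 without Nr2e3-/- replicate 2. Stat2 (chr10:128270559-128292849), the member of the ISGF3 complex that carries its transactivation domain, showed the same order, with 66.5, 72.2 and 57.9 CPM in WT and 65.4, 94.5 and 105 CPM in Nr2e3-/-. Here again tumor 1 of the knockout lay among the WT tumors and tumors 2 and 3 above them (log2 fold change 0.43 ± 0.19 SE, adjusted p = 0.239 by edgeR). Irf9, the DNA-binding subunit of ISGF3, had 30.2, 37.0 and 32.1 CPM in WT and 31.6, 51.2 and 47.3 CPM in Nr2e3-/- (0.39 ± 0.19 SE, adjusted p = 0.275). Irf7, which amplifies type I interferon production, departed from the other 3: its 81.4 CPM in Nr2e3-/- tumor 2 stood above 31.8 to 45.4 CPM in all other libraries, and its log2 fold change of 0.26 became -0.28 without that tumor. The counting of Irf1 and Irf9 could include reads of overlapping genes. An antisense gene model crosses 907 bases of Irf1, and the strand setting is not given in the sources used here. Rnf31 shares 123 bases with Irf9 on the same strand.

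The upstream stretches of Irf1 and Stat2, both highest in Nr2e3-/- tumor 3, are shown because they hold different cores, for Irf1 the GAS core at chr11:53769904-53769952 (plus strand) and for Stat2 the ISRE core at chr10:128270256-128270305 (plus strand).
Irf1: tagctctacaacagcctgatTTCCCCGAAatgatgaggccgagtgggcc
Stat2: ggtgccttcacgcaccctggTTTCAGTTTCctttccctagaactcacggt

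Among all 40 members, 9 had both Nr2e3-/- tumors 2 and 3 above all 3 WT tumors: Irf1, Irf9, Stat2, Mx2, Bst2, Ifi35, Parp9, Irgm1 and Iigp1. This is 22.5% of the members, and 27.7% of all tested genes had that order, so the order itself was no more frequent among the members. By role it included 3 of the 4 transcription factors, 2 of 7 in each of the other antiviral effectors, the other ISGs and the GTPases, and 0 of the 4 sensors, 3 ISG15 system genes, 3 IFIT genes and 5 OAS genes, and a difference between roles was not tested.

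None of the 4 nucleic acid sensors was past an unadjusted p of 0.05. Ifih1, which encodes the cytoplasmic double-stranded RNA sensor MDA5, was the sensor with the most counts, at 50.2, 54.1 and 44.4 CPM in WT and 51.2, 72.9 and 42.7 CPM in Nr2e3-/-. Apart from Nr2e3-/- tumor 2 its values overlapped, and the log2 fold change was 0.17 ± 0.20 (SE). Ddx58 (RIG-I) had a log2 fold change of -0.09 and Dhx58 (LGP2) of 0.08. Zbp1, a sensor of Z-form nucleic acid that can trigger necroptosis, varied most, from 2.98 CPM in Nr2e3-/- tumor 1 to 23.4 CPM in Nr2e3-/- tumor 2, with 4.75 to 13.2 CPM in WT, and its log2 fold change of 0.44 had an SE of 0.70.

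ISG15 is a ubiquitin-like protein that is conjugated to other proteins during the interferon response. Its gene had 13.1, 10.4 and 5.69 CPM in WT and 7.08, 13.8 and 6.76 CPM in Nr2e3-/-, and the genotypes overlapped, with Nr2e3-/- tumor 2 the highest and WT tumor 3 the lowest (log2 fold change -0.07 ± 0.38 SE). Usp18, which removes ISG15 and dampens receptor signaling, had a log2 fold change of -0.17 ± 0.34 (SE), and -0.72 without Nr2e3-/- replicate 2. Trim25, a ubiquitin ligase that acts on RIG-I, was the most highly counted gene of the group, at 111, 114 and 129 CPM in WT and 95.7, 150 and 126 CPM in Nr2e3-/-. With a log2 fold change of 0.07 ± 0.17 (SE), its genotypes overlapped too. Among the stretches printed here, that of Isg15 holds the most ISRE cores in a row, 3 of them overlapping, at chr4:156200855-156200916 (minus strand).
Isg15: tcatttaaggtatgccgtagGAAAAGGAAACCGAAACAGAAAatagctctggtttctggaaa

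IFIT proteins bind viral RNA and block its translation. Ifit1 had 20.9, 12.5 and 6.52 CPM in WT and 7.55, 25.9 and 7.68 CPM in Nr2e3-/-. The 3 WT tumors thus spanned more than 3-fold, and the log2 fold change was 0.06 ± 0.58 (SE); without Nr2e3-/- replicate 2 it was -0.80. Ifit3 ran from 17.7 CPM in WT tumor 1 to 5.58 CPM in WT tumor 3, with 6.02, 12.5 and 7.30 CPM in Nr2e3-/-, and was the only IFIT gene whose highest library was a WT tumor. Ifit2 had a log2 fold change of -0.35 ± 0.28 (SE). The IFIT group (-0.35) and the ISG15 system (-0.07) were the only role groups with a negative median log2 fold change. The Ifit1 stretch, at chr19:34640765-34640833 (plus strand), holds a pair of separate ISRE cores.
Ifit1: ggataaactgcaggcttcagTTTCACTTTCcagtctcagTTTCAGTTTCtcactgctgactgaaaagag

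OAS enzymes make 2′-5′-linked oligoadenylates that activate RNase L. The 5 members of this family had log2 fold changes between 0.16 and 0.39, all above 0, and none was past an unadjusted p of 0.05. Oasl1, the one with the most counts, had 13.9, 14.0 and 8.46 CPM in WT and 16.9, 15.5 and 9.52 CPM in Nr2e3-/-, and its genotypes overlapped (0.21 ± 0.28 SE). It was also the single member whose highest library was Nr2e3-/- tumor 1. Without Nr2e3-/- replicate 2, the median of the family fell from 0.21 to -0.41 and 4 of the 5 were below 0.

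Of the other antiviral effectors, Mx1 had the largest negative log2 fold change of all members. MX proteins are dynamin-like GTPases, and Mx1 of C57BL/6 mice carries a large deletion that leaves no functional protein. Its values were 2.57, 2.50 and 1.25 CPM in WT and 0.530, 2.12 and 0.703 CPM in Nr2e3-/-, from 8 to 74 counts a library. Nr2e3-/- tumors 1 and 3 lay below all WT tumors and tumor 2 among them (log2 fold change -0.85 ± 0.54 SE, adjusted p = 0.390 by edgeR). Its neighbor Mx2 ran the other way, with 3.65, 4.13 and 5.27 CPM in WT and 5.36, 5.42 and 6.49 CPM in Nr2e3-/-. All 3 knockout tumors exceeded all 3 WT tumors, but the gap between the nearest pair was small and the log2 fold change was 0.40 ± 0.20 (SE), with an adjusted p of 0.283. Isg20, an exonuclease that degrades single-stranded RNA, had the second largest positive value, 0.63 ± 0.30 (SE), from 3.42, 1.83 and 2.22 CPM in WT and 3.18, 4.94 and 3.35 CPM in Nr2e3-/-. Here WT tumor 1 lay within the knockout range, and the adjusted p was 0.274.

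Bst2 (tetherin), which holds budding virus at the cell surface, was the most abundant member per length. It had 119, 96.2 and 114 CPM in WT and 114, 145 and 127 CPM in Nr2e3-/-, with a log2 fold change of 0.23 ± 0.13 (SE) and overlapping genotypes. The remaining effectors, Rsad2 (viperin, 0.09), Cmpk2 (-0.04) and Samd9l (0.26), had small log2 fold changes within 1 SE of 0. The Bst2 stretch, at chr8:71537567-71537628 (minus strand), is shown because its GAS core runs directly into overlapping ISRE cores.
Bst2: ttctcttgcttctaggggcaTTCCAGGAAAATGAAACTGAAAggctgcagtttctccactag

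**Figure D2:**
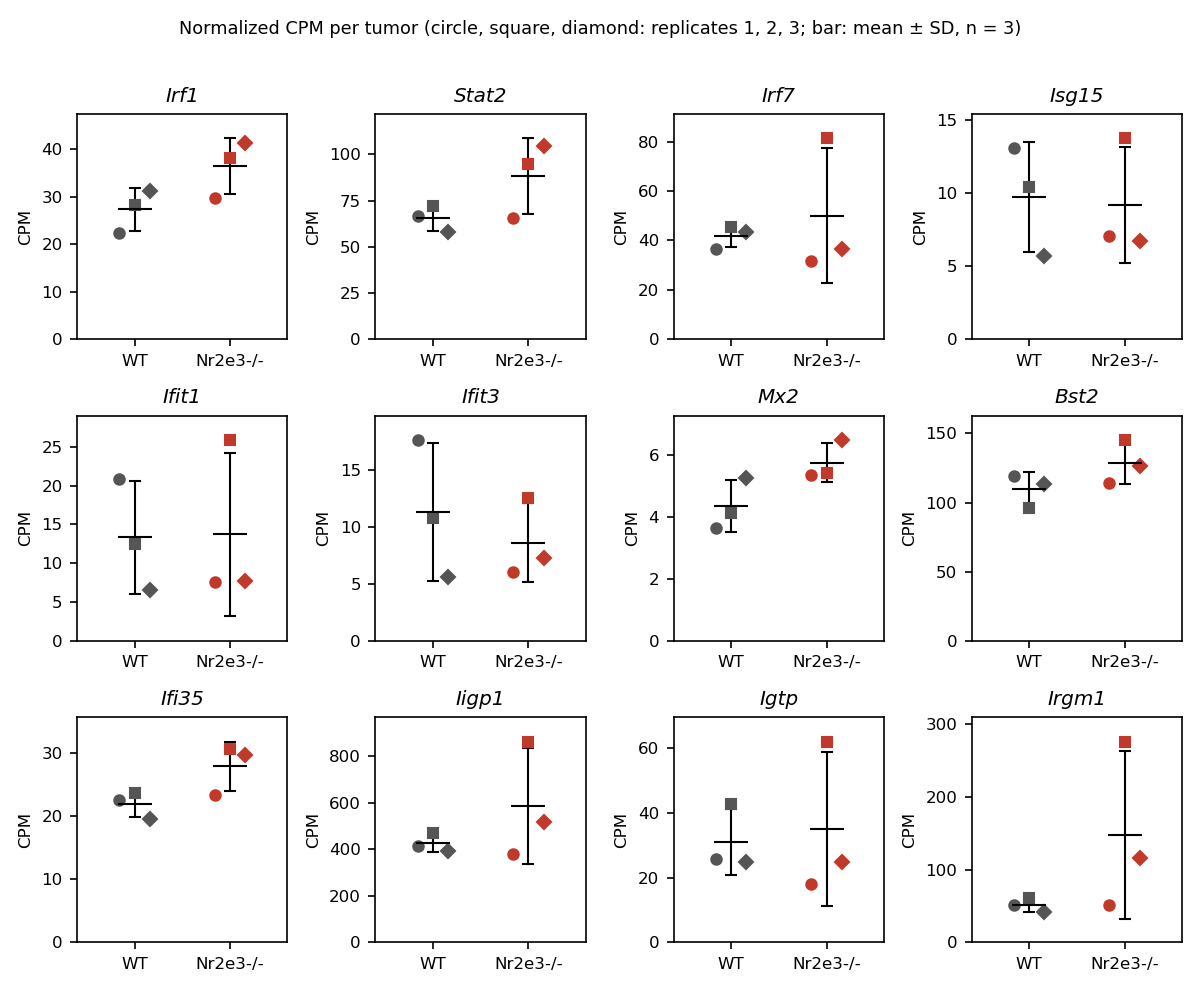
Points give the CPM of 12 ISGs in each tumor (circle, square and diamond for replicates 1, 2 and 3; gray WT, red Nr2e3-/-), with bars for the mean ± SD of 3 tumors on axes that start at 0. The red square, Nr2e3-/- tumor 2, is the highest point for Irf7, Isg15, Ifit1, Bst2, Ifi35, Iigp1, Igtp and Irgm1, while the red diamond is the highest for Irf1, Stat2 and Mx2 and the WT circle for Ifit3.

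Ifi35 (chr11:101448407-101458698), whose product acts with NMI in the interferon response, was 1 of the 3 genes past the unadjusted threshold. It had 22.5, 23.6 and 19.5 CPM in WT and 23.3, 30.6 and 29.6 CPM in Nr2e3-/-. As for Irf1 and Stat2, knockout tumor 1 lay in the WT range and tumors 2 and 3 above it (log2 fold change 0.35 ± 0.14 SE, unadjusted p = 0.0449, adjusted p = 0.223 by edgeR). An antisense gene model overlaps 815 bases of it. Parp9, an ADP-ribosyltransferase that works with the ligase DTX3L, had 49.9, 68.3 and 48.4 CPM in WT and 56.7, 80.9 and 75.2 CPM in Nr2e3-/- (0.35 ± 0.19 SE), and 682 bases of its model overlap Dtx3l on the opposite strand. Of the other 5 genes in this group, Xaf1, Rtp4, Trim30a and Parp14 had positive log2 fold changes of 0.33 to 0.57 that were each below 0 without Nr2e3-/- replicate 2, and Ifi44 went from -0.27 to -1.05.

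Interferon-inducible GTPases attack the vacuoles of intracellular pathogens, and the IRGM proteins among them regulate the others. Irgm1 (chr11:48861968-48871683) had the largest difference of all 40 members. It had 51.9, 61.6 and 41.7 CPM in WT (51.7 ± 9.93, SD, n = 3) and 50.8, 276 and 116 CPM in Nr2e3-/- (147 ± 116). Knockout tumor 2 stood 5.33-fold above the WT mean and tumor 3 above every WT tumor, while tumor 1 lay within the WT range. The log2 fold change was 1.51 ± 0.55 (SE), with an unadjusted p of 0.0268 and an adjusted p of 0.181 by edgeR. DESeq2 gave an adjusted p of 0.0297 and limma-voom with sample weights 0.0477 for the same libraries, and these tools called 5.81% and 17.4% of the genes each tested. Without Nr2e3-/- replicate 2 the log2 fold change was 0.69.

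Iigp1, another GTPase of the family and the member with the most counts, had 415, 470 and 393 CPM in WT and 381, 863 and 518 CPM in Nr2e3-/-. Tumors 2 and 3 of the knockout were again above the WT range and tumor 1 below it (0.46 ± 0.28 SE). Igtp (0.18) and Irgm2 (-0.09), whose gene models share 7974 bases on 1 strand so that their counts may not be separate, had 18.1 to 62.1 CPM and 36.8 to 81.9 CPM and overlapped between genotypes. The guanylate-binding proteins Gbp2, Gbp3 and Gbp7 had log2 fold changes of 0.38, 0.09 and 0.58, and each was below 0 without Nr2e3-/- replicate 2. For all 7 GTPases, Nr2e3-/- tumor 2 was the highest and tumor 1 the lowest of the knockout tumors, and WT tumor 2 was the highest of the WT tumors.

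The GTPase stretches are shown because this is the role group in which every matched member holds an ISRE core. They lie at chr3:142530210-142530312 for Gbp7, chr11:58199491-58199551 for Igtp and chr11:58214882-58214942 for Irgm2, all on the plus strand, and at chr11:48871421-48871470 on the minus strand for Irgm1. Gbp7 holds a pair of GAS cores and 1 ISRE core; Igtp and Irgm2 each hold 1 of both, and their 61 bases are identical at 59 positions; Irgm1 holds overlapping ISRE cores.
Gbp7: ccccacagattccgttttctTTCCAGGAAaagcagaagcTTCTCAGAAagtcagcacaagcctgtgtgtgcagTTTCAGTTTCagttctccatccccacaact
Igtp: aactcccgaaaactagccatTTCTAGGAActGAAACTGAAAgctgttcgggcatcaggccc
Irgm2: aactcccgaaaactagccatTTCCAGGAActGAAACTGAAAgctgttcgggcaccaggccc
Irgm1: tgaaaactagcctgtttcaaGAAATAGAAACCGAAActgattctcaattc

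In Nr2e3-/- tumor 3, Irgm1 (116 CPM) was above its WT range while Igtp (24.9 CPM) was within its own and Irgm2 (49.3 CPM) within its own.

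**Figure D3:**
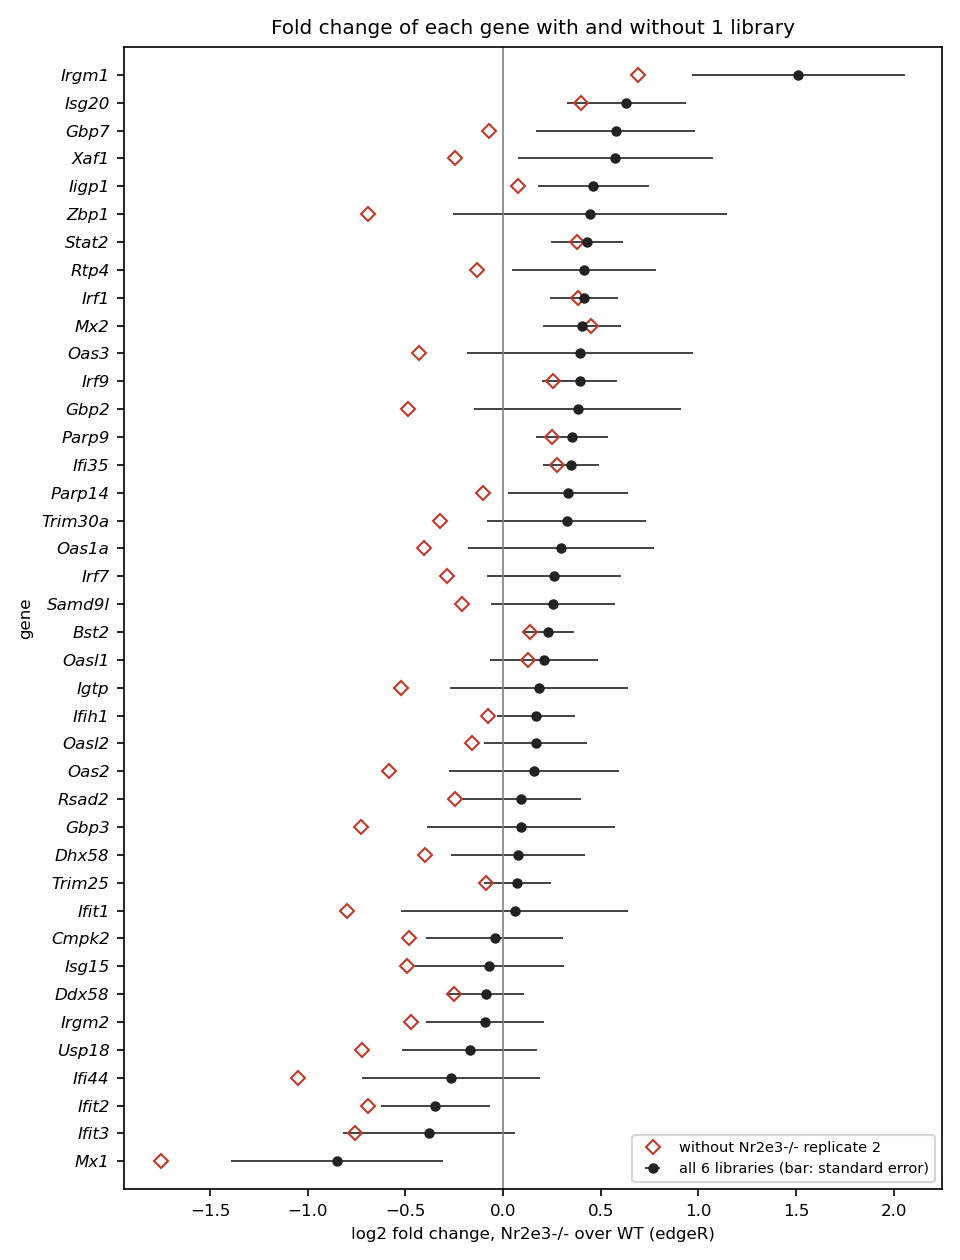
Black points give the edgeR log2 fold change (Nr2e3-/- over WT) of each member over all 6 libraries with its standard error, and red diamonds the value without Nr2e3-/- replicate 2. Most diamonds lie left of their point and 29 of 40 lie below 0, whereas those of Irf1, Stat2 and Mx2 stay close to their point.

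The tumors of WT mice also differed among themselves in which ISGs were high. WT tumor 2 was the highest WT tumor for 25 members, among them all 7 GTPases and all 4 sensors. WT tumor 1 was the highest for 12, among them all 3 IFIT genes. Over the 13572 tested genes, WT tumor 2 was the highest WT tumor for 4466 and WT tumor 1 for 4474. WT tumor 3 was the lowest WT tumor for 30 of the 40, against 4794 of the 13572 tested genes.

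Upstream of the members, almost no interferon RNA was counted. Of 19 interferon genes, 16 had 0 counts in every library and the other 3 (Ifnk, Ifng and Ifna5) had 15 counts in all, at most 3 in a library, and none was tested. Ifnb1 was among those at 0, which allows up to 0.195 CPM in the shallowest library, and Ifng reached at most 0.0743 CPM. The receptor genes Ifnar1 (log2 fold change 0.03 ± 0.11 SE) and Ifngr1 (0.14 ± 0.24) had log2 fold changes within 1 SE of 0. Among the other receptor genes, Ifngr2 had 21.7, 32.0 and 23.3 CPM in WT and 24.1, 44.9 and 51.4 CPM in Nr2e3-/- (0.65 ± 0.29 SE, adjusted p = 0.247 by edgeR). Its adjusted p was 0.0170 without Nr2e3-/- replicate 1, a fit in which 21.8% of all tested genes passed 0.05. The interferon lambda receptor gene Ifnlr1 had a log2 fold change of -0.95 ± 0.44 (SE), at 1.84 CPM or less. Of the 51 ligands, receptors, kinases, adaptors and negative regulators listed, 32 were tested, and 8 were higher and 0 lower at an unadjusted p under 0.05 (11.8% and 9.72% of all tested genes), none with an adjusted p under 0.05. Without WT replicate 3, 0 were higher and 1 lower, against 1785 of 13692 tested genes in either direction. Without Nr2e3-/- replicate 2, 2 were higher, against 9.54% of all tested genes, and 1 lower, against 9.46%. The count was 1 higher without WT replicate 1 (2151 of 13814 tested genes in either direction) or Nr2e3-/- replicate 3 (1693 of 13854). It was 5 higher without WT replicate 2 (1780 of 13687). Leaving out Nr2e3-/- replicate 1 gave 13 higher, where 19.9% of all tested genes were higher and 17.8% lower. In that fit 11 of the 32 passed an adjusted p of 0.05, against 21.8% of all tested genes. With WT replicate 1, WT replicate 2, Nr2e3-/- replicate 1 or Nr2e3-/- replicate 3 left out, 0 were lower. The 8 were Jak1, Irf5, Tbk1, Ikbke, Myd88, Ticam1, Socs3 and Ptpn2. The kinase gene Jak1 had 170, 176 and 167 CPM in WT and 197, 292 and 224 CPM in Nr2e3-/-, without overlap (0.47 ± 0.16 SE, adjusted p = 0.164). Socs3, a feedback inhibitor induced by several cytokines, had 11.7, 9.85 and 10.6 CPM in WT and 5.30, 96.5 and 54.0 CPM in Nr2e3-/- (2.28 ± 0.82 SE, adjusted p = 0.180). Like Irgm1, it was high in knockout tumors 2 and 3 and not in tumor 1. The adaptor genes Myd88 (0.69) and Ticam1 (0.41) and the transcription factor gene Irf5 (0.40) complete the 5 of smallest p.

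A further list of 79 ISGs outside the members, of which 69 were tested, had 3 genes higher and 3 lower at an unadjusted p under 0.05, below the 11.8% and 9.72% of all tested genes, and a median log2 fold change of 0.03. The higher genes were Pnpt1 (1.07 ± 0.27 SE), Ifitm3 (0.61 ± 0.17), an inhibitor of viral entry, and Ifi205 (0.85 ± 0.35), and the lower ones were Gbp4 (-0.83 ± 0.29), Parp10 (-0.33 ± 0.13) and Sp100 (-0.40 ± 0.16). None of the 6 passed an adjusted p of 0.05. Without Nr2e3-/- replicate 2, 2 were higher, against 9.54% of all tested genes, and 19 lower, against 9.46%. Without Nr2e3-/- replicate 1, 11 were higher, against 19.9% of all tested genes, and 1 lower, against 17.8%. The count was 3 higher without WT replicate 2 (1780 of 13687 tested genes in either direction). It was 2 higher without WT replicate 1 (2151 of 13814) or Nr2e3-/- replicate 3 (1693 of 13854). With WT replicate 1, WT replicate 2 or Nr2e3-/- replicate 3 left out, 0 were lower. Nr2e3-/- tumor 2 was the highest library for 45 of the 69 (65.2%, against 23.95% of all tested genes) and WT tumor 2 for 18 (26.1%, against 13.6%). In the 17 tested genes of the gamma response, such as further GBPs, Cxcl9 and Ciita, the median log2 fold change was -0.39, and without Nr2e3-/- replicate 2 it was -0.85 with all 17 below 0. The 12 genes of MHC class I and its loading had 0 members past an unadjusted p of 0.05 in either direction by edgeR, a median of -0.04, and split their highest library evenly between Nr2e3-/- tumor 2 and WT tumor 2, with 6 each.

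Markers of macrophages, neutrophils, leukocytes as a whole and red cells were also high in Nr2e3-/- tumor 2. It was the highest library for 0 of the 6 tested T and NK cell markers and 0 of the 5 B and plasma cell markers. The 8 macrophage and Kupffer cell markers, among them Clec4f, Marco, Cd5l and Emr1 (F4/80), summed to 305, 378 and 388 CPM in WT and 265, 685 and 348 CPM in Nr2e3-/-, and all 8 were highest in Nr2e3-/- tumor 2. The 4 pan-leukocyte markers (Ptprc, Coro1a, Laptm5 and Tyrobp) summed to 46.2, 64.8 and 51.0 CPM in WT and 34.0, 96.6 and 49.0 CPM in Nr2e3-/-. T and NK cell markers were low, with sums of 2.15, 8.66 and 3.71 CPM in WT and 2.91, 6.35 and 2.22 CPM in Nr2e3-/-, highest in WT tumor 2, the WT tumor in which the GTPases were highest. The 3 tested neutrophil markers followed the order of Irgm1 and Socs3 instead, with sums of 1.56 to 3.08 CPM in WT and 2.18, 20.3 and 13.4 CPM in Nr2e3-/-. These 3, S100a8, S100a9 and Cxcr2, were higher at an unadjusted p under 0.05, while the listed Ly6g, Retnlg and Mpo were not tested. Siglech, a defining marker of plasmacytoid dendritic cells, was at 0.854 CPM or less. Of the 8 dendritic cell markers, 7 had a log2 fold change below 0 (median -0.35), and the 1 above 0 was Bst2, itself a member. Nr2e3-/- tumor 3 was the lowest library for 7 of the 8 (87.5%, against 19.9% of all tested genes), and Nr2e3-/- tumor 2 the highest for 2. The B cell markers Cd79a, Cd79b and Ms4a1 were lower in Nr2e3-/- at an unadjusted p under 0.05, each at 1.39 CPM or less, while the plasma cell marker Igj had a log2 fold change of 0.36 ± 0.80 (SE). Red cell markers summed to 142 to 202 CPM in WT and 244, 322 and 229 CPM in Nr2e3-/-, and all 5 lay above every WT tumor in Nr2e3-/- tumor 2. Bile duct markers, mostly Spp1, summed to 57.0 to 118 CPM in WT and 68.9, 428 and 185 CPM in Nr2e3-/-. Nr2e3-/- tumor 2 was the highest library for only 2 of these 5 markers, and the median marker there stood at 0.800-fold the WT mean. The 7 stromal markers went the other way in Nr2e3-/- tumors 2 and 3, with sums of 241 to 263 CPM in WT and 274, 160 and 152 CPM in Nr2e3-/-. The 6 endothelial markers summed to 314 to 329 CPM in WT and 330, 335 and 277 CPM in Nr2e3-/-. The part that the number of these cells played in the levels of the ISGs was not tested.

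**Figure D4:**
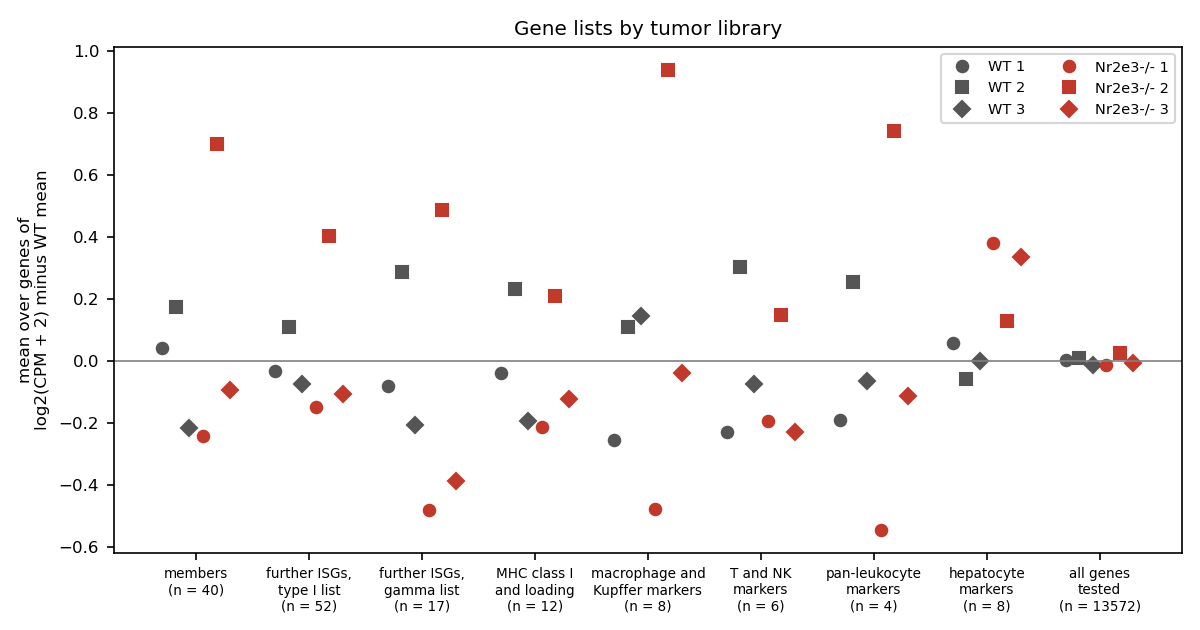
For each gene list, points give the mean over its tested genes of log2(CPM + 2) minus the WT mean in each tumor (gray WT, red Nr2e3-/-; circle, square and diamond for replicates 1, 2 and 3). Nr2e3-/- tumor 2 is the highest point for the 40 members (0.70), both further ISG lists and the macrophage and Kupffer markers (0.94), while WT tumor 2 is the highest for MHC class I genes and T and NK markers, and all tested genes lie near 0.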

How the data were processed

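RNA was extracted from liver tumors with the miRvana kit and made into TruSeq libraries. As their methods state, the authors placed single-end reads on the mm10 genome by TopHat, and featureCounts gave the reads per gene. Bowtie2 2.4.5 and SAMtools 1.14 also stand in the submitters' processing notes. The annotation and strand setting are not given in the sources used here. The unnormalized counts per gene that the authors deposited were the only values used. Their normalized table, which holds the same counts times a constant per library, and their table of fold changes and p-values were left aside. Strain and sex stand in the labels under other field names, and dose, age and time point come from the methods.

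Groups came from the sample titles. Genes were kept by filterByExpr (minimum count 10, minimum total 15), scaled by TMM, and tested two-sided with the quasi-likelihood test of edgeR 4.0.16 (R 4.3.3), without covariates, with adjustment over all 13572 genes. The test was tried on simulated counts. The 40 members and all other gene lists were chosen with earlier results of these data known, so lists carry no test of their own. Values per library are given for members with an unadjusted p under 0.05, the 3 of largest absolute log2 fold change and the highest mean CPM of each role. From the other lists, up to 5 genes of smallest p, Ifnar1, Ifngr1, Ifnb1 and Ifng are named (1 gene of this rule is not reported here); genes beyond this rule, such as Mx2, Irf7, Irf9, Isg15, Ifit3, Zbp1, Ifngr2, Ifnlr1, Tbk1, Ikbke, Ptpn2 and Sp100, and the interest in Nr2e3-/- replicate 2, were chosen after their values were seen. Gene positions and exon lengths are from GENCODE (GRCm38), and upstream sequences from RefSeq (GRCm38.p6). Alternatives were RLE and upper-quartile scaling, DESeq2 1.42.0, limma-voom (limma 3.58.1) with sample quality weights, other count filters, the replicate number as a block and leaving out each library.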

Additional observations from a re-analysis of the deposited data

How the results depend on the processing

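Counts of ISGs past an adjusted p of 0.05 were 0 in the analysis reported and 1 with DESeq2, 2 with limma-voom and 0 to 5 when single libraries were left out; the 5 came without Nr2e3-/- replicate 1. At an unadjusted p under 0.05, the 3 members became 1 with upper-quartile scaling, 7 with limma-voom, 1 with at least 10 counts required in every library (39 members left, without Mx1), and 1 to 9 when libraries were left out. The median log2 fold change of 0.24 became -0.00244 with limma-voom and -0.25 to 0.44 when libraries were left out, the lowest without Nr2e3-/- replicate 2. The 8 pathway genes became 5 with upper-quartile scaling and 1 to 13 when libraries were left out, and the 6 further ISGs became 10 with limma-voom and 2 to 21. The 0 MHC class I genes became 1 with upper-quartile scaling, limma-voom or the stricter filter, and 0 to 2 without single libraries. Upper-quartile scaling moved the median of all genes to -0.08. Over all tested genes, 2916 passed an unadjusted p of 0.05 in the analysis reported. This became 2884 with upper-quartile scaling, 4981 with limma-voom, and 1693 to 5220 when libraries were left out, the most without Nr2e3-/- replicate 1.

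Of 168 values of the 13 named members under 13 alternatives, 151 kept direction and side of the threshold, 7 passed it and 10 changed sign. The last were Ifih1 (-0.0296 with limma-voom, and -0.0748 to 0.33 when libraries were left out, the lowest without Nr2e3-/- replicate 2), Trim25 (-0.0193 with upper-quartile scaling, and -0.0885 to 0.24 when libraries were left out, the lowest likewise), Ifit1 (-0.0365 with upper-quartile scaling, -0.27 with limma-voom, -0.0260 with the replicate block, and -0.80 to 0.54 when libraries were left out, below 0 without WT replicate 3 or Nr2e3-/- replicate 2) and Oasl1 (-0.0822 with limma-voom). The cause of these changes was not tested. Same-numbered tumors share a number in their titles, and whether they share more is not stated in the sources used here. Their deviations from the genotype mean correlated at -0.08, 0.22 and 0.02, and those of differently numbered tumors at -0.26 to 0.22. With 3 tumors per genotype these values cannot tell whether the numbers mark pairs. With the replicate number as a block, 0 members and 0 of all genes passed an adjusted p of 0.05, against 13 of all genes without it. In that fit 4 members passed an unadjusted p of 0.05, with a median of 0.15 over the members. Depth limits Mx1 most in counts (8 to 74 a library), while Zbp1 has the largest standard error of its log2 fold change (0.70).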
